A study of Mus musculus with 18 samples.

Results

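The Gimap family (GTPases of immunity-associated proteins) was examined in regulatory T cells (TR) sorted from lymph node and spleen. The 8 members were chosen by gene symbol, Gimap1 and Gimap3 to Gimap9, with their levels in the 6 groups of these libraries already in view. All 8 were found among the 37991 genes of the count table and in the table of normalized values, and all 8 passed the filter on low counts that left 12445 genes. Because those levels guided the choice, the differences below are given as a description, with counts of calls and no p-values for single members.

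Gimap proteins are small GTP-binding proteins found mainly in lymphocytes, and some are anchored to the membranes of organelles. They are known for their part in the survival and steady numbers of T and B cells. Gimap5 is the best studied: its loss in mice and in the BB rat strain leads to a shortage of T cells, and the protein sits on lysosomes. Gimap1 is needed for mature T and B cells in mice, and Gimap6 binds Gabarapl2, a protein of autophagy. Gimap3 is the close relative of Gimap5 and binds proteins of the Bcl2 family, as does Gimap5.

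RNA was sequenced from 18 libraries of 500 sorted cells each, made with the SMART-Seq v4 kit for small inputs and a Nextera XT protocol that does not keep strand. Every library came from 1 of 3 littermate mice (84, 86 and 87) on the C57BL/6 background, all carrying both reporters, Id3-GFP and Foxp3-mRFP, so no group lacks them. Their age is not given in the labels. Each mouse gave 3 populations from peripheral lymph node and from spleen. They are effector TR without the Id3 reporter (Id3- eTR), effector TR with it that are CD44-high (Id3+ eTR), and central TR with it that are CD44-low (Id3+ cTR). The label of Id3- eTR states no CD44 gate. Id3 is an inhibitor of E proteins, transcription factors that bind the E-box.

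Library totals ran from 1600782 to 3153325 counts, and a member held 324 to 2464 counts in a library, which gives a counting error of 5.56% at the low end and 2.01% at the high end. Levels are CPM, counts scaled to a common library size, on totals scaled by TMM, a normalization that centres most genes on no change. Foxp3 averaged 259 to 290 CPM in the 6 groups, and Id3 averaged 71.4 and 58.5 CPM in Id3- eTR of lymph node and spleen, against 248 to 296 CPM in the 4 groups sorted with the reporter. 3 spleen libraries stood apart from the others, 1 by disagreement with its group and 2 by low totals alone. Id3+ eTR of mouse 84 differed from its group by 20.6 and 20.8 times the counting variance, where no other pair within a group passed 7.76. Id3+ cTR of mice 84 and 87 had the lowest totals, 1600782 and 1684461 counts. They did not disagree with their group, whose pairs differed by 4.16 to 5.81 times the counting variance. The spleen Id3+ cTR group, mouse 86 included, had mitochondrial shares of 0.426% to 0.652%, overlapping 0.288% to 0.548% in the other groups. Library numbers in the titles run on from all spleen libraries to all lymph node libraries, so tissue and any order of library preparation cannot be told apart. With 500 cells pooled per library, fewer expressing cells and less RNA per cell cannot be told apart either.

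The 8 genes lie side by side on mouse chromosome 6 in the order Gimap8, Gimap9, Gimap4, Gimap6, Gimap7, Gimap1, Gimap5 and Gimap3, with Gimap6 and Gimap3 on the minus strand. RefSeq promoters of GRCm38.p6 covered all 8 genes in 9 windows of 300 bases, 2 of them, which overlap, for Gimap8. The build the submitters aligned to is not stated in these sources. Since the sort divides cells by an inhibitor of E proteins, the windows were searched for the E-box, CANNTG, which reads the same on both strands. It was found in 7 of the 9 windows and 6 of the 8 genes, beside 72.3% of 32851 mouse promoter windows of the same length. 4 windows are shown with their E-boxes in capitals. They are those of Gimap7, the member with the largest tissue difference, of Gimap4 and Gimap6, the highest per exon length, and of Gimap9, whose tissue difference was the smallest together with that of Gimap1. Gimap7 is at chr6:48718371-48718670 on the plus strand, Gimap4 at chr6:48684328-48684627 on the plus strand, Gimap6 at chr6:48708195-48708494 on the minus strand and Gimap9 at chr6:48675885-48676184 on the plus strand.
Gimap7: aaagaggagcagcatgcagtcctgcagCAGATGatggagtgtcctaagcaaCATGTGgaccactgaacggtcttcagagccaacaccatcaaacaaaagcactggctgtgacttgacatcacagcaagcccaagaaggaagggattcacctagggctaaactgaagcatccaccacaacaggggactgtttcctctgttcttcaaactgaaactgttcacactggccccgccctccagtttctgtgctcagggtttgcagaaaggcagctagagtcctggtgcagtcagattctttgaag
Gimap4: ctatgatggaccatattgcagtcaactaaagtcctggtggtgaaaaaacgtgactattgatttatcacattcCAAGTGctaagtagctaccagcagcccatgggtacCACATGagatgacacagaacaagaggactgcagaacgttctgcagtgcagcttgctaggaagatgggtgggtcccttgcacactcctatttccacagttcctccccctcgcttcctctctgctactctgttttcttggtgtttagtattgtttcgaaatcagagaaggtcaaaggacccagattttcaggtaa
Gimap6: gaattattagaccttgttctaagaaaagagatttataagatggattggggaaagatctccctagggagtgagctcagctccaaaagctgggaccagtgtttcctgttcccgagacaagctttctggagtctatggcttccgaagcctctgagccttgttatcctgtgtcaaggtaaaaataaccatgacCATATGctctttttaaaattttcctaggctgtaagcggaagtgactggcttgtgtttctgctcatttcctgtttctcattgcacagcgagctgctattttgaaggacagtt
Gimap9: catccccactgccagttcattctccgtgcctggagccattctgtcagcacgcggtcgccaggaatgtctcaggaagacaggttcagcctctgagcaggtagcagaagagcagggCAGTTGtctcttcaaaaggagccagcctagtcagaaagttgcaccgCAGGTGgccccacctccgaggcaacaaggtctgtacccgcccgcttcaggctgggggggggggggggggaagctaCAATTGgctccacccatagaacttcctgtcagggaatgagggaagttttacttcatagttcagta
The Gimap9 window held 3 E-boxes, those of Gimap7 and Gimap4 held 2 each and that of Gimap6 held 1. None was found in the windows of Gimap1 and Gimap3, which says only that these letters are not there. Other motifs were searched on both strands. The ETS motif AGGAAG was in 7 of the 9 windows and 7 of the 8 genes, against 35.4% of all promoters. The KLF motif CCNCNCCC was in 5 windows but 4 genes, against 49.5%. The Runx motif TGTGGT was in 3 windows against 16.8% of all promoters, the TCF/LEF motif CTTTGA in 2 against 16%, and the Foxo motif GTAAACA in 1 against 3.65%. The only overlap between motifs was of an E-box with a Runx motif in the Gimap4 window. The GC content of the windows ran from 43.3% to 57.3% with a median of 48.0%, against a median of 52.7% over all promoters.

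Set against exon length (GENCODE M21), Gimap4 had the highest level at 412 CPM per kb averaged over the 18 libraries, and Gimap6 followed at 230 CPM per kb. Gimap9 was at 198, Gimap3 at 142, Gimap7 at 124 and Gimap1 at 118 CPM per kb. Gimap5 and Gimap8 were the lowest at 61.7 and 58 CPM per kb. Gimap7 varied most between libraries, 2.97-fold from its lowest to its highest, and Gimap1 least, 1.37-fold. The summed level of the 8 genes was 2729 ± 138 CPM in Id3- eTR, 2702 ± 147 in Id3+ eTR and 3263 ± 134 in Id3+ cTR of lymph node (SD, n = 3 each). In spleen it was 3824 ± 288 CPM in Id3- eTR, 3438 ± 281 in Id3+ eTR and 4267 ± 518 in Id3+ cTR. Within each population the 3 lymph node sums lay below the 3 spleen sums, most narrowly in Id3+ eTR, at 2605 to 2871 CPM in lymph node against 3114 to 3614 CPM in spleen, and in Id3+ cTR, at 3116 to 3379 CPM against 3673 to 4624 CPM.

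**Figure D1:**
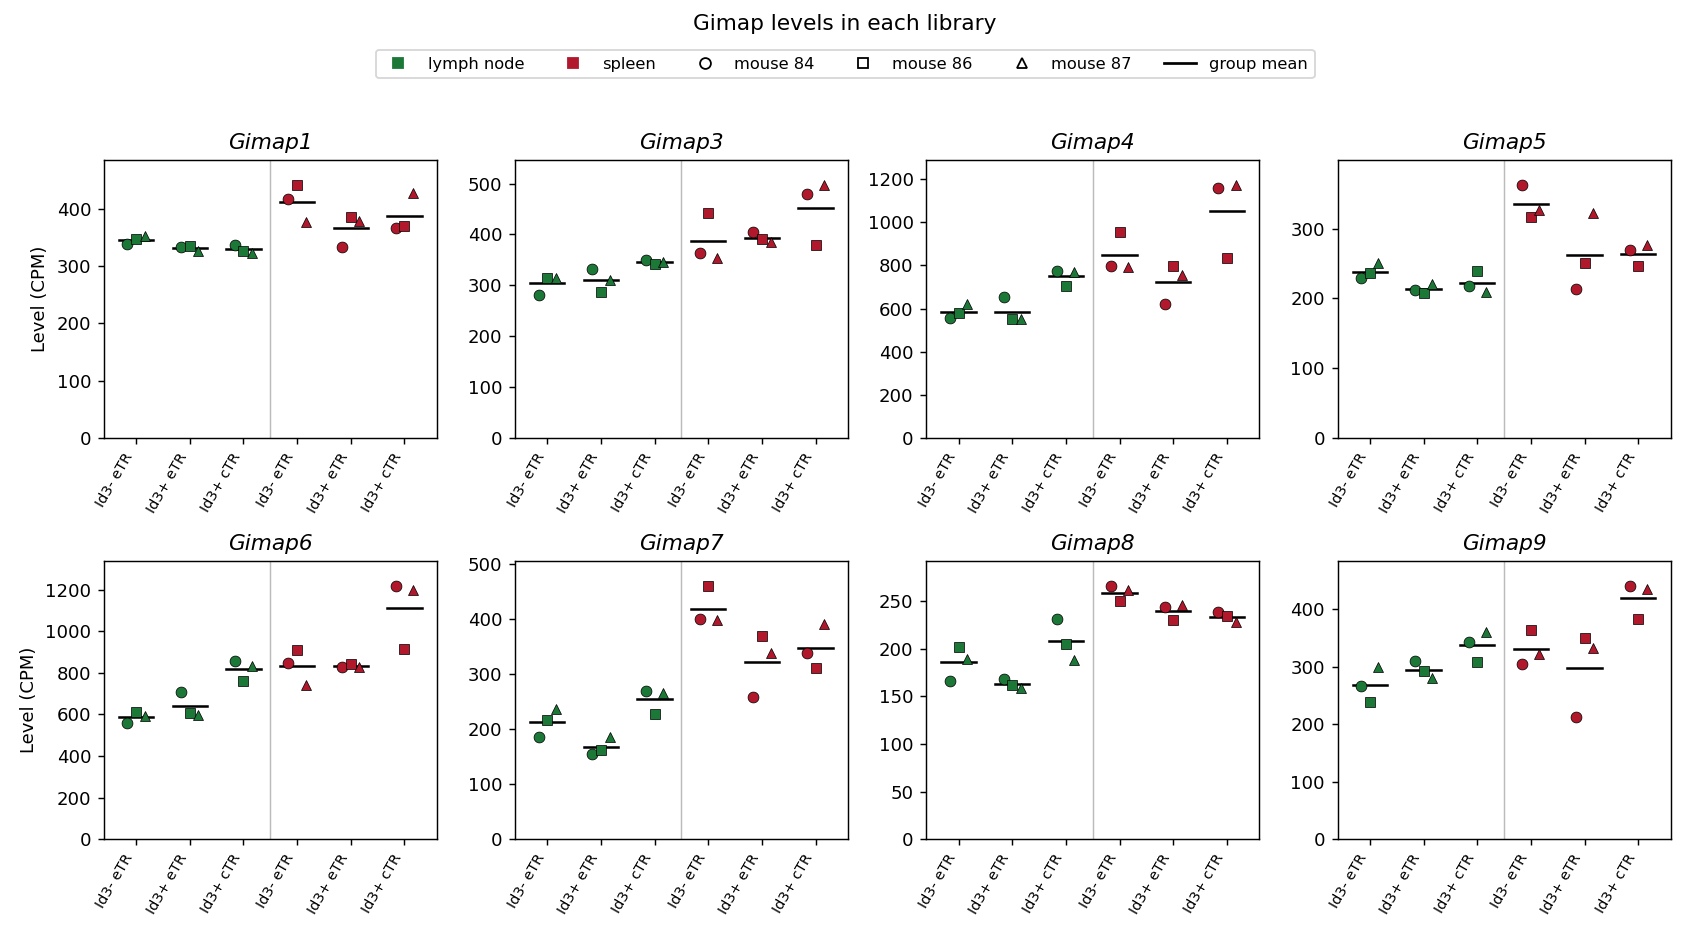
Level of each Gimap gene in CPM (y axis, from 0) in the 18 libraries, by tissue (colour), population (x axis) and mouse (symbol); bars are group means. Gimap3 is the member whose 9 lymph node libraries all lie below its 9 spleen libraries.

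The first question is how lymph node TR differ from spleen TR. Levels of all 8 members were lower in lymph node when the 3 populations were averaged, by 0.21 to 0.79 on the log2 scale. The median of the 8 log2 changes was -0.38, where the median over all 12445 genes was -0.01. In a fit of all 18 libraries by edgeR's quasi-likelihood test with Benjamini-Hochberg adjustment, calls were made below an adjusted p of 0.05. 6 of the 8 members were called lower, all but Gimap1 and Gimap9, and 71 genes or 0.571% of those tested were called lower in all. Leaving out spleen Id3+ eTR of mouse 84 raised the count to all 8. It was 7, with Gimap1 added, without spleen Id3- eTR of mouse 87 or spleen Id3+ cTR of mouse 86. The share of all genes called is not given for these fits, so the added calls are no result about the members. Of the 72 differences between lymph node and spleen within a mouse and population, 69 were below 0. All 3 exceptions, in Gimap9, Gimap4 and Gimap1, were in Id3+ eTR of mouse 84, whose spleen library stood apart. The 72 differences come from 3 mice and from genes that varied together, so they are not independent observations. The same count was not made over all genes.

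**Figure D2:**
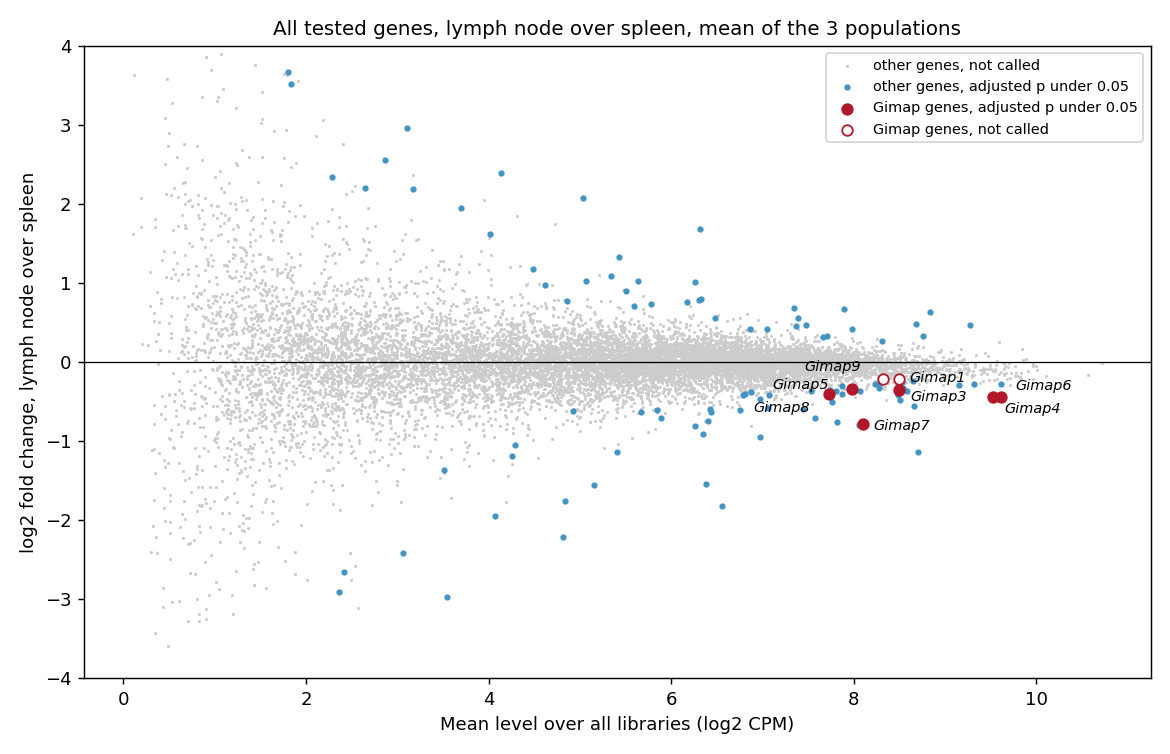
Log2 fold change of lymph node over spleen, mean of the 3 populations (y axis), against the mean level in log2 CPM (x axis) for all 12445 tested genes; 39 genes beyond a log2 change of 4 are not drawn. The 8 Gimap genes sit below 0 at log2 changes of -0.21 to -0.79.

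Gimap7, whose human form dimerizes on binding GTP, had the largest difference. In Id3- eTR it stood at 186, 218 and 237 CPM in lymph node against 401, 460.0 and 398 CPM in spleen (mice 84, 86 and 87). Every lymph node library was below every spleen library, and the log2 change was -0.97 ± 0.14 (SE). In Id3+ eTR the levels were 155, 162 and 185 CPM in lymph node against 259, 370.3 and 339.7 CPM in spleen. These ranges were apart too, at a log2 change of -0.95 ± 0.14. In Id3+ cTR Gimap7 had 269.5, 229 and 266 CPM in lymph node against 339, 311 and 392 CPM in spleen. The ranges did not overlap, but the log2 change was smaller at -0.45 ± 0.14 and was not called. Ordered by group mean, Gimap7 was highest in spleen Id3- eTR, then in spleen Id3+ cTR and Id3+ eTR, then in lymph node Id3+ cTR, Id3- eTR and Id3+ eTR. Only the first step and the last step of that order had ranges that did not overlap.

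Gimap8, which carries several GTPase domains in tandem, had the second-largest difference in Id3+ eTR. It stood there at 168, 162 and 158 CPM in lymph node against 243, 229.5 and 246 CPM in spleen. The lymph node values were all lower, at a log2 change of -0.56 ± 0.09. In Id3- eTR the levels were 166, 201 and 189 CPM in lymph node against 265, 249.5 and 261 CPM in spleen. These ranges were apart as well, at -0.48 ± 0.09. In Id3+ cTR they were 231, 204 and 188 CPM in lymph node against 239, 235 and 228 CPM in spleen. The ranges overlapped there, at -0.17 ± 0.09. By group mean Gimap8 was highest in spleen Id3- eTR, followed by spleen Id3+ eTR and Id3+ cTR, then lymph node Id3+ cTR, Id3- eTR and Id3+ eTR. Apart from the first step, neighbours in this order overlapped.

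Gimap6, the partner of Gabarapl2, had ranges apart in every population. In Id3- eTR it had 559, 611 and 591 CPM in lymph node against 846, 908 and 744 CPM in spleen. The ranges were apart at a log2 change of -0.50 ± 0.10. In Id3+ eTR it had 709, 609 and 596.5 CPM in lymph node against 826, 843 and 827 CPM in spleen. These ranges were apart at -0.38 ± 0.10. In Id3+ cTR it had 857, 761 and 831 CPM in lymph node against 1215, 917 and 1196 CPM in spleen. The ranges were again apart at -0.44 ± 0.10, with the spleen values of mice 84 and 87 well above that of mouse 86. By group mean, spleen Id3+ cTR was highest, then spleen Id3- eTR and Id3+ eTR with lymph node Id3+ cTR close behind, then lymph node Id3+ eTR and Id3- eTR. The 3 groups in the middle overlapped, as did the last pair.

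Gimap4, studied in mice for the pace of T cell death, gave the same picture on a wider spread. In Id3- eTR it had 556, 578 and 622 CPM in lymph node against 796, 955.3 and 793 CPM in spleen. The ranges were apart at a log2 change of -0.53 ± 0.13. In Id3+ eTR it had 652, 549 and 551 CPM in lymph node against 619, 796 and 754 CPM in spleen. Here the ranges overlapped through mouse 84, at -0.31 ± 0.13. In Id3+ cTR it had 773, 705 and 769.6 CPM in lymph node against 1157, 833 and 1172 CPM in spleen. The ranges were apart at -0.49 ± 0.13. Its highest group mean was in spleen Id3+ cTR, followed by spleen Id3- eTR, lymph node Id3+ cTR, spleen Id3+ eTR, lymph node Id3- eTR and lymph node Id3+ eTR. Of these steps only that from spleen Id3- eTR to lymph node Id3+ cTR had ranges that did not overlap.

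Gimap5 averaged 238.7 ± 11.1 CPM in Id3- eTR of lymph node against 335.5 ± 24 CPM in spleen (SD, n = 3), with ranges apart. It averaged 213.5 ± 6.67 CPM against 262.4 ± 55.2 CPM in Id3+ eTR, with overlap, and 222.5 ± 15.9 CPM against 264 ± 15.5 CPM in Id3+ cTR, without. The log2 changes were -0.49 ± 0.12, -0.30 ± 0.12 and -0.24 ± 0.12 in these 3 populations. Spleen Id3- eTR was the highest group, then spleen Id3+ cTR and Id3+ eTR, then lymph node Id3- eTR, Id3+ cTR and Id3+ eTR. Only the first step of that order had ranges apart.

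Gimap3 averaged 303.6 ± 18.9 CPM in Id3- eTR of lymph node against 386.5 ± 49.3 CPM in spleen. It averaged 309.7 ± 22.9 CPM against 393.5 ± 11 CPM in Id3+ eTR, and 346 ± 4.2 CPM against 451.7 ± 63.1 CPM in Id3+ cTR. With all libraries its log2 changes were the most even of the family, at -0.35 ± 0.11, -0.35 ± 0.11 and -0.38 ± 0.11. Without the 3 spleen libraries that stood apart they were -0.35, -0.32 and -0.13, the last with only mouse 86 left in spleen Id3+ cTR. Gimap3 was also the only member whose 9 lymph node libraries, at 281.8 to 350.5 CPM, all lay below its 9 spleen libraries, at 352.8 to 497 CPM, a separation seen in 0.0562% of the genes tested. Gimap3 and Gimap5 share 190 stretches of 50 bases, 7.52% of those of Gimap3 and 4.53% of those of Gimap5, so how reads from these stretches were counted is uncertain. The 3 spleen groups overlapped with one another, with Id3+ cTR the highest, and in lymph node Id3+ cTR was apart from both eTR groups, which overlapped.

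Gimap1 averaged 345.9 ± 6.97 CPM in Id3- eTR of lymph node against 411.7 ± 32.8 CPM in spleen, with ranges apart. In Id3+ eTR it averaged 331.7 ± 4.23 CPM against 366 ± 28.2 CPM, with overlap, and in Id3+ cTR 328.8 ± 7.5 CPM against 387.3 ± 34.1 CPM, without. Its log2 changes of -0.25 ± 0.08, -0.14 ± 0.08 and -0.24 ± 0.08 were among the smallest. By group mean the order was spleen Id3- eTR, Id3+ cTR and Id3+ eTR, then lymph node Id3- eTR, Id3+ eTR and Id3+ cTR. Only lymph node Id3- eTR and Id3+ eTR were apart as neighbours, at 338.4 to 352.2 CPM and 326.8 to 334.3 CPM. The antisense gene Gimap1os overlaps 1107 bases or 36% of the Gimap1 exons, and 33.4% of the 50-base stretches of Gimap1 also occur in other counted genes. The library kit does not keep strand, so reads in the shared part cannot be told apart. Gimap1os averaged 71.7 ± 13.4, 81 ± 9.21 and 116 ± 12.4 CPM in Id3- eTR, Id3+ eTR and Id3+ cTR of lymph node, against 108 ± 17.9, 139 ± 24.1 and 157 ± 15.2 CPM in spleen, and was called lower at -0.60 ± 0.10 over the 3 populations.

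Gimap9, the least studied member, averaged 269 ± 30.5 CPM in Id3- eTR of lymph node against 330.7 ± 31 CPM in spleen. It averaged 294.7 ± 14.4 CPM against 298.4 ± 74.1 CPM in Id3+ eTR, and 337.5 ± 26.7 CPM against 419.6 ± 32 CPM in Id3+ cTR. The log2 changes were -0.30 ± 0.15, -0.02 ± 0.15 and -0.31 ± 0.15. Ranges overlapped in Id3+ eTR alone, where spleen of mouse 84 had 213 CPM against 349.6 and 332 CPM in the spleen of mice 86 and 87. Spleen Id3+ cTR was the highest group and was apart from the next, lymph node Id3+ cTR. Then came spleen Id3- eTR and Id3+ eTR and lymph node Id3+ eTR and Id3- eTR, and these neighbours overlapped.

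**Figure D3:**
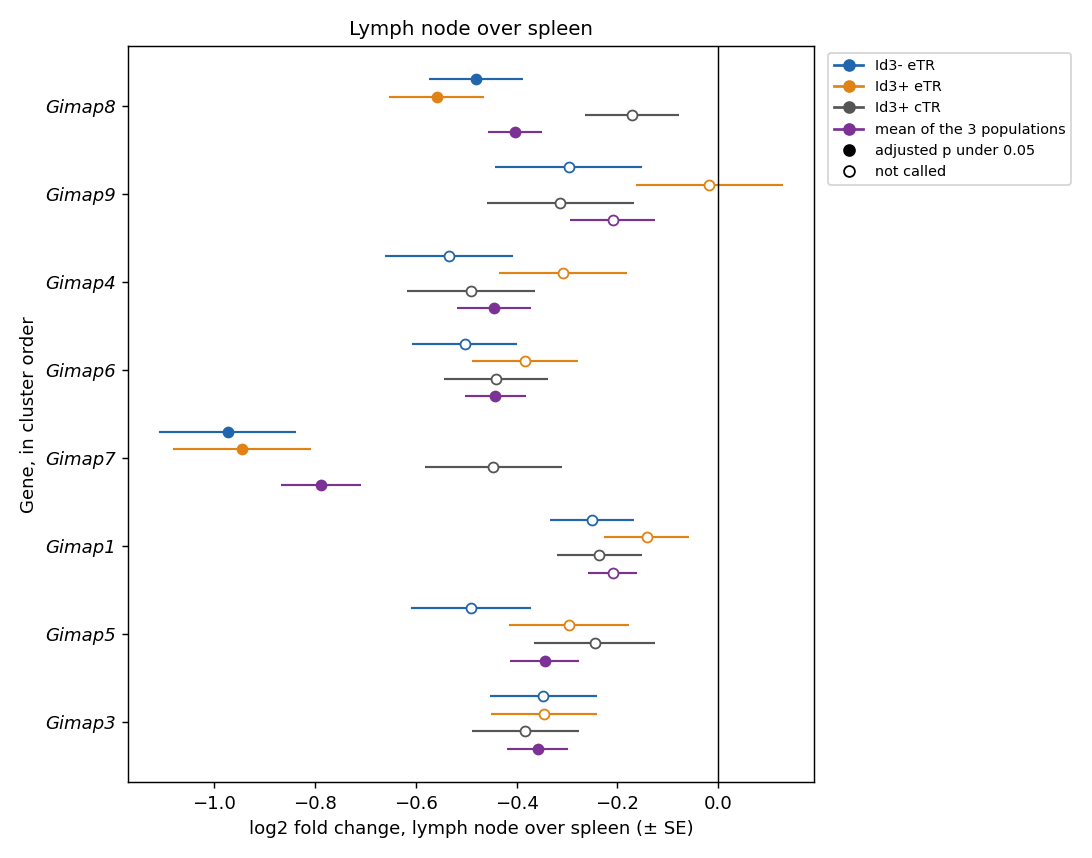
Log2 fold change of lymph node over spleen with its SE (x axis) for each Gimap gene in cluster order (y axis), within each population and over their mean; filled points have an adjusted p under 0.05. The values run from -0.02 for Gimap9 in Id3+ eTR to -0.97 for Gimap7 in Id3- eTR, and none is above 0.

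Within single populations fewer members were called. In Id3- eTR all 8 members had every lymph node library below every spleen library, as had 7.1% of the genes tested. 2 members, Gimap7 and Gimap8, were called lower there, and 0.161% of all genes were. In Id3+ eTR 4 members had every lymph node library below every spleen library, Gimap3, Gimap6, Gimap7 and Gimap8, beside 6.63% of all genes. Gimap7 and Gimap8 were called lower again, beside 0.177% of all genes. In Id3+ cTR 7 members, all but Gimap8, had every lymph node library lower, beside 7.38% of all genes. None of the 8 was called there by edgeR, and 1 gene in all, 0.00804% of those tested, was called in either direction. At an unadjusted p under 0.05 edgeR counted 6 members in Id3+ cTR, DESeq2 called 4 and limma-voom 0. Over all 12445 genes tested these counts were 967, 108 and 0. Single libraries moved these counts, and the share of all genes called is not given for those fits. In Id3- eTR 1 member was called without spleen mouse 84 or 86 or lymph node mouse 84 or 87, and without spleen mouse 87 Gimap6 was called in place of Gimap8. Over the 6 libraries left out in turn, Gimap8 ran from -0.55 to -0.41 and Gimap7 from -1.06 to -0.89. In Id3+ eTR the count was 0 without lymph node mouse 84, and 1 without spleen mouse 84 or lymph node mouse 86 or 87. There Gimap8 ran from -0.59 to -0.54 and Gimap7 from -1.07 to -0.84. In Id3+ cTR 2 members, Gimap4 and Gimap6, were called without spleen mouse 86, at -0.63 and -0.55.

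The 3 spleen libraries that stood apart bear on these values. In spleen Id3+ cTR, mouse 86 was the lowest of the 3 mice for Gimap3 to Gimap7 and for Gimap9. Without the 3 libraries, with only mouse 86 left in spleen, the tissue differences in Id3+ cTR lay between -0.13 and -0.29 for the 8 members. They were smaller for 7 of them, for example -0.17 ± 0.12 for Gimap6 and -0.15 ± 0.12 for Gimap4, while Gimap8 stood at -0.18 ± 0.13, against -0.17 ± 0.09 with all libraries. In Id3+ eTR the difference of Gimap7 then stood at -1.08 ± 0.12 and that of Gimap9 at -0.21 ± 0.11, and Gimap8 was no longer called at about the same change, -0.55 ± 0.10. In Id3- eTR, which kept its 6 libraries, the changes hardly moved while their SEs fell. Gimap6 was at -0.50 ± 0.08 against -0.50 ± 0.10 with all libraries, and Gimap4 at -0.54 ± 0.09 against -0.53 ± 0.13. Calls added there are not listed, since the share of all genes called in that fit is not given. Averaged over the populations, Gimap3 lost its call without the 3 libraries, at -0.27 ± 0.06 against -0.36 ± 0.06 with all. With mouse as a replicate block, a paired fit, Gimap7 alone was called in Id3- eTR, at -0.98 ± 0.13, and Gimap8 had the same change of -0.48 ± 0.10 without a call.

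**Figure D4:**
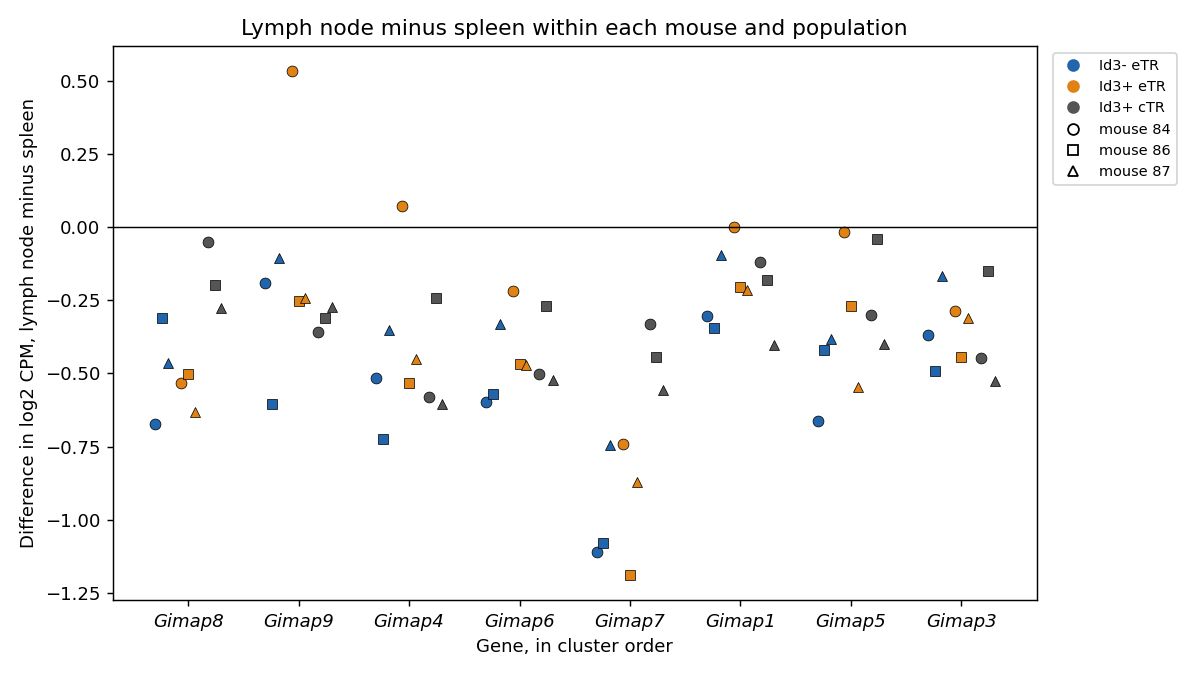
Difference in log2 CPM between lymph node and spleen of the same mouse (y axis) for each Gimap gene in cluster order (x axis), by population (colour) and mouse (symbol). Of the 72 points, 69 are below 0, and the lowest belong to Gimap7 at down to -1.19.

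The second question is how the members differ between the sorted populations. Relative to Id3+ cTR, Gimap6 was lower in Id3- eTR of both tissues. It had the values given above, with every Id3- eTR library below every Id3+ cTR library in lymph node (559 to 611 CPM against 761 to 857 CPM) and in spleen (744 to 908 CPM against 917 to 1215 CPM). The log2 changes were -0.48 ± 0.10 in lymph node and -0.41 ± 0.10 in spleen, and Gimap6 was the 1 member called in each. Of all genes, 4.68% were called lower and 8.26% higher in lymph node, and 5.09% lower and 7.17% higher in spleen. The other 7 members ranged from -0.36 for Gimap4 to 0.10 for Gimap5 in lymph node, and from -0.34 for Gimap9 to 0.35 for Gimap5 in spleen. Gimap5, Gimap7 and Gimap8 had Id3- eTR libraries all above the Id3+ cTR libraries in spleen. In all, 5 of the 8 members had ranges apart in either direction in lymph node, beside 33.9% of all genes, and 5 in spleen, beside 30.5%. In lymph node Gimap7 and Gimap8 had changes of the other sign, with overlapping ranges.

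In Id3+ eTR relative to Id3+ cTR other members were called in each tissue, a difference that was tested by the interaction below. In lymph node Gimap7 was at -0.60 ± 0.14 and Gimap8 at -0.35 ± 0.09, both called lower with ranges apart, beside 1.46% of all genes called lower and 4.2% called higher. In spleen Gimap4 at -0.54 ± 0.13 and Gimap6 at -0.41 ± 0.10 were called lower with ranges apart, beside 1.39% of all genes called lower and 2.93% called higher. The values of Gimap6 in lymph node, -0.36 ± 0.10, and of Gimap4, -0.36 ± 0.13, had the same direction and ranges apart but were not called. Gimap7 and Gimap8 in spleen, at -0.10 ± 0.14 and 0.04 ± 0.09, had overlapping ranges. Gimap1 and Gimap5 stood near 0 in both tissues, between -0.08 and 0.01, with overlap throughout. Ranges were apart for 5 of the 8 members in lymph node, beside 24.8% of all genes, and for 3 in spleen, beside 19.8%.

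Id3- eTR set against Id3+ eTR gave no called member in either tissue by edgeR, beside 2.62% of all genes called in either direction in lymph node and 3.28% in spleen. DESeq2 and limma-voom called 0 as well, and at an unadjusted p under 0.05 edgeR counted 1 member in lymph node and 2 in spleen. Of all 12445 genes tested, 1629 in lymph node and 2034 in spleen were under that unadjusted threshold. Gimap7 was higher in every Id3- eTR library of both tissues, at 185.5 to 237.4 CPM against 154.8 to 185.2 CPM in lymph node and 398.3 to 460.0 CPM against 259.3 to 370.3 CPM in spleen. Its log2 changes were 0.35 ± 0.14 and 0.38 ± 0.13. Gimap5 was at 0.16 ± 0.12 in lymph node, with ranges apart, and at 0.36 ± 0.12 in spleen, with overlap. Ranges were apart for 3 of the 8 members in lymph node, beside 22% of all genes, and for 2 in spleen, beside 18.5%. Without spleen Id3+ eTR of mouse 87, 1 member, Gimap5, was called higher in spleen, in a fit whose share over all genes is not given.

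**Figure D5:**
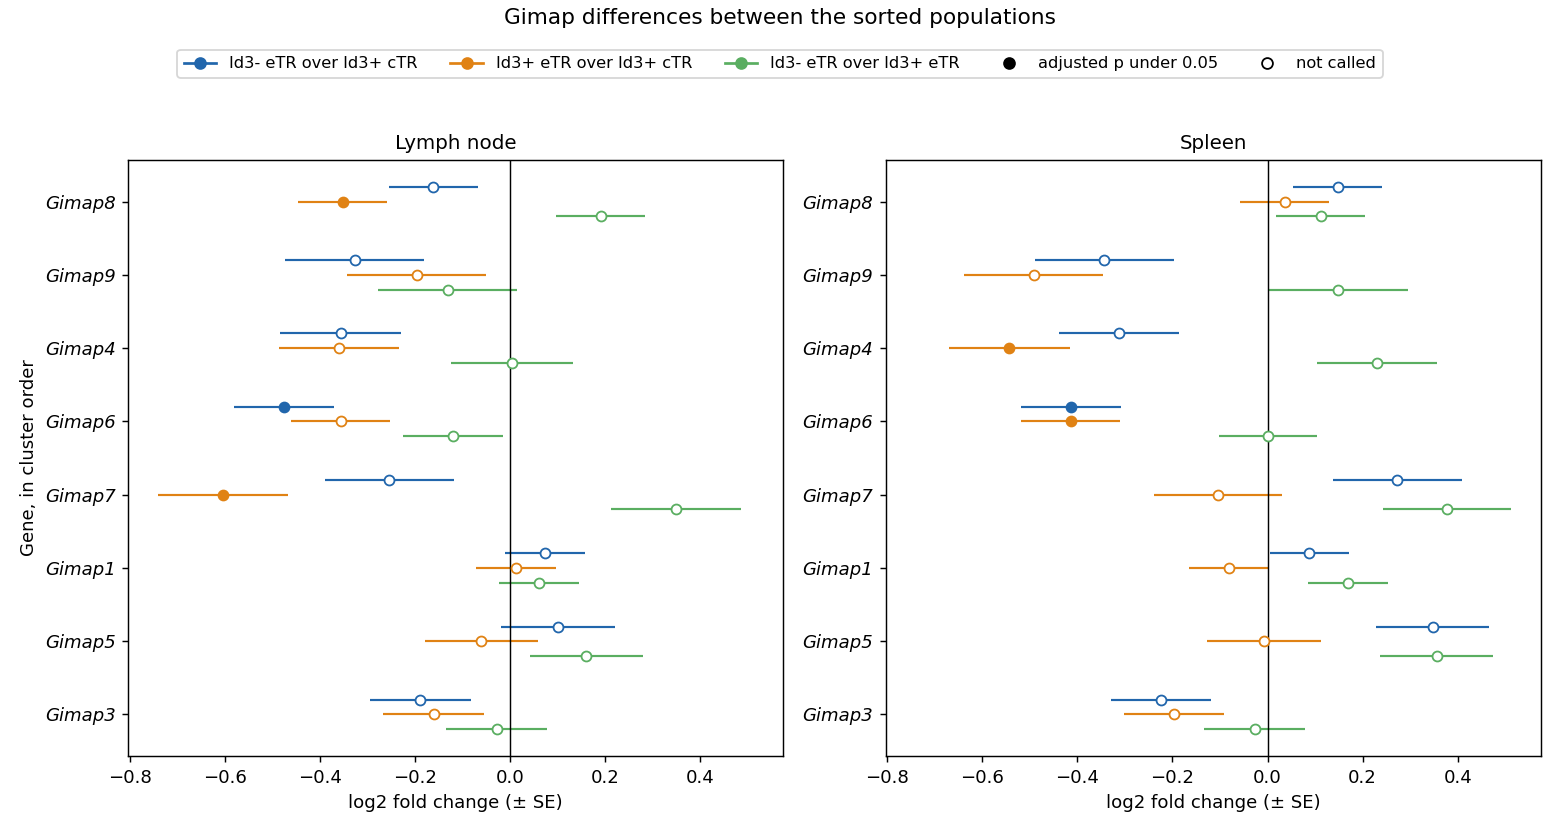
Log2 fold changes with their SE (x axis) between the sorted populations for each Gimap gene in cluster order (y axis), in lymph node and in spleen; filled points have an adjusted p under 0.05. The filled points are Gimap6, Gimap7 and Gimap8 in lymph node and Gimap4 and Gimap6 in spleen, all below 0.

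The number of population calls moved with the libraries used, and the share of all genes called is not given for those fits. Without the 3 spleen libraries that stood apart, the calls of Gimap6 and Gimap4 in the spleen comparisons with Id3+ cTR were lost. Gimap6 was then at -0.14 ± 0.12 in Id3- eTR and -0.13 ± 0.13 in Id3+ eTR, and Gimap4 at 0.02 ± 0.12 and -0.10 ± 0.13. Leaving out spleen Id3+ cTR of mouse 84 or of mouse 87, or spleen Id3- eTR of mouse 87, took away the call of Gimap6 in spleen Id3- eTR, and leaving out spleen Id3+ cTR of mouse 86 brought a second call, Gimap4. In the spleen comparison of Id3+ eTR with Id3+ cTR, 0 members were called without Id3+ eTR of mouse 84 or without Id3+ cTR of mouse 84 or 87, and Gimap4 alone without Id3+ eTR of mouse 87. Without Id3+ eTR of mouse 86, Gimap9 was called in place of Gimap6. With 1 library left out at a time, Gimap6 stayed between -0.52 and -0.32 in spleen Id3- eTR and between -0.52 and -0.34 in spleen Id3+ eTR, and Gimap4 between -0.67 and -0.43 in spleen Id3+ eTR. In lymph node the same comparison gave 0 called members without Id3+ cTR of mouse 84 or Id3+ eTR of mouse 86, and 1 without any of the other 4 libraries, while Gimap7 stayed between -0.67 and -0.55 and Gimap8 between -0.41 and -0.26. With the 3 spleen libraries left out of the fit, the changes in this lymph node comparison hardly moved while their SEs fell. Gimap6 was then at -0.36 ± 0.08 against -0.36 ± 0.10 with all libraries. Calls added in that fit are not listed. With mouse as a replicate block Gimap8 was not called in lymph node Id3+ eTR, at the same change of -0.35 ± 0.10.

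Whether the population differences themselves differed between the tissues was examined by the interaction, the change in lymph node minus that in spleen. No member was called by edgeR in any of the 3 interactions, where 0.0241% of all genes were called for Id3- eTR against Id3+ cTR and 0% for each of the other two. DESeq2 and limma-voom called 0 members too. At an unadjusted p under 0.05 edgeR counted 2 members for Id3- eTR against Id3+ cTR, beside 856 of the 12445 genes tested. It counted 2 for Id3+ eTR against Id3+ cTR, beside 1180 genes, and 0 for Id3- eTR against Id3+ eTR, beside 750. Gimap7 had the lowest values, -0.53 ± 0.19 and -0.50 ± 0.19 in the first 2 of these, and Gimap8 followed at -0.31 ± 0.13 and -0.39 ± 0.13. A difference in these changes between lymph node and spleen was thus not shown for any member.

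The members varied together to different degrees. Over the 18 libraries the 28 pairs of members had Pearson correlations of log2 CPM from 0.32, for Gimap8 with Gimap9, to 0.941, for Gimap4 with Gimap6, with a median of 0.701. Gimap3 with Gimap6 stood at 0.94. Around the group means the correlations ran from -0.22 to 0.866 with a median of 0.408. Gimap7 with Gimap8 was at 0.897 over all libraries and 0.00427 around the group means, while Gimap3 with Gimap6 stayed at 0.866. The libraries share mice, tissue and depth, so these values describe these libraries only.

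Outside the family, the 5 genes whose log2 CPM was most like the mean of the members over the 18 libraries, by Pearson correlation among 8855 genes, were Klf6, Tagln2, Hspa8, Rnu3a and Dnajb1. Klf6, a zinc-finger transcription factor, had a correlation of 0.921 and averaged 677 CPM in lymph node against 906 CPM in spleen. Tagln2, an actin-binding protein, had 0.916, at 276 CPM against 348 CPM. Hspa8, a heat shock protein of the Hsp70 family, had 0.899, at 106 CPM against 147 CPM, and Dnajb1, an Hsp40 partner of Hsp70 proteins, had 0.822, at 337 CPM against 497 CPM. Rnu3a, a small nucleolar RNA gene, had 0.836 but few reads, at 8.43 CPM against 12.8 CPM. In lymph node over spleen Klf6 was at -0.42 ± 0.07, Tagln2 at -0.33 ± 0.06, Hspa8 at -0.46 ± 0.08 and Dnajb1 at -0.56 ± 0.10, all called, and Rnu3a at -0.60 ± 0.22 was not. Of all genes tested, 0.571% were called lower. The 5 genes were picked for their likeness to the members over these same libraries. Their lower levels in lymph node therefore follow in part from the choice and are no separate result. By Spearman correlation the first 4 were the same genes and Dnajb1 was at rank 8. The part of the heat shock genes in the levels of the members was not tested.

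None of the genes that flank the cluster was called between the tissues. Of 5 annotated neighbours on each side, 3 before and 2 after were in the count table and tested. Over the 3 populations edgeR, DESeq2 and limma-voom each called 0 of these 5, and 0 had an unadjusted p under 0.05. Their log2 changes were 0.55 ± 0.88 for Repin1, -0.23 ± 0.35 for Zfp775 and -0.07 ± 0.34 for AI854703. Tmem176b was at 0.61 ± 0.38 and Tmem176a at 0.90 ± 0.54. With SEs this large, a change of the members' median size, -0.38, could go uncalled. These genes therefore cannot show whether the tissue difference ends at the cluster. Repin1, Zfp775 and AI854703, the 3 before, had group means of 0 to 9.38, 16.5 to 30.8 and 6.6 to 24.5 CPM. Tmem176b and Tmem176a, a pair of membrane proteins after the cluster, were called between populations. Tmem176b averaged 107 ± 13.6 CPM in Id3- eTR, 36.2 ± 45.2 in Id3+ eTR and 20.4 ± 5.82 in Id3+ cTR of lymph node (SD, n = 3), and 107 ± 43.1, 12.8 ± 0.543 and 15.4 ± 6.45 CPM in these 3 populations of spleen. It was called higher in Id3- eTR than in Id3+ cTR at a log2 change of 2.39 ± 0.65 in lymph node and 2.76 ± 0.68 in spleen, and Tmem176a at 2.92 ± 0.92 and 3.89 ± 1.03.

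Genes tied to what Gimap proteins are known to do were set beside the family, in 4 lists of 37 genes, all tested, of which 16 were called in at least 1 population comparison, as were 19.7% of all genes. The Bcl2 family list holds 8 regulators of cell death. Bcl2, which protects lymphocytes from death, averaged 87.4 ± 1.14 CPM in Id3- eTR, 303 ± 34.2 in Id3+ eTR and 604 ± 18.9 in Id3+ cTR of lymph node, and 82.1 ± 10.1, 389 ± 61.1 and 538 ± 65 CPM in these populations of spleen (SD, n = 3). It fell in all 6 population comparisons, with log2 changes of -2.79 ± 0.13 in Id3- eTR against Id3+ cTR of lymph node and -2.71 ± 0.13 in spleen. Bcl2l11, which encodes the death-promoting protein Bim, fell by 2.12 in Id3- eTR against Id3+ cTR of spleen and was at -0.66 ± 0.26 in lymph node, not called. Over the list, Id3- eTR against Id3+ cTR gave 2 of 8 called lower in lymph node, Bcl2 and Mcl1, and in spleen 3 lower, with Bcl2l11 added, and 1 higher, Bcl2a1b at 1.25 ± 0.31. The medians of the list were 0.02 and 0.31, against 0.004 and 0.0023 for all genes. Between the tissues 0 of 8 were called by edgeR, DESeq2 or limma-voom, and 2 had an unadjusted p under 0.05. In that comparison 1486 of all 12445 genes tested had an unadjusted p under 0.05 by edgeR.

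The autophagy list of 10 genes had no called member by edgeR or limma-voom in any of the 13 comparisons. DESeq2 called at most 1 and an unadjusted p under 0.05 was reached by 0 to 2 of them. The list of quiescence and recirculation held 15 genes of resting T cells. Against Id3+ cTR, Id3- eTR had 8 of 15 called lower and 1 higher (Il7r) in lymph node, and 10 lower in spleen, and Id3+ eTR had 6 lower in lymph node and 7 in spleen. Bach2, a repressor of effector genes, was at 24.8 ± 3.73, 94.2 ± 16.8 and 222 ± 42.5 CPM in Id3- eTR, Id3+ eTR and Id3+ cTR of lymph node (SD, n = 3). In the same groups Satb1, a chromatin organizer, was at 120 ± 20.2, 168 ± 23.9 and 651 ± 37.5 CPM, and Ccr7, a lymph node homing receptor, at 133 ± 27.5, 444 ± 33.2 and 588 ± 38.7 CPM. In Id3- eTR against Id3+ cTR of lymph node these 3 were at -3.16 ± 0.19, -2.43 ± 0.13 and -2.15 ± 0.16, where the Gimap genes ran from -0.48 to 0.10. Between lymph node and spleen 2 of the 15 were called, both lower in lymph node: Klf2 at -0.51 ± 0.09 and Satb1 at -0.37 ± 0.07. DESeq2 called 4 of the 15 and limma-voom 2, and 10 had an unadjusted p under 0.05 by edgeR. Of the 4 genes of the glycogen synthase kinase list, Nfatc1 was called higher in all 4 comparisons of eTR with cTR, at 0.91 to 1.29. Between tissues edgeR and limma-voom called 0 of the 4 and DESeq2 called 1, and 2 had an unadjusted p under 0.05.

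Other GTPases were counted for comparison. Of 17 interferon-inducible GTPases 15 were tested, and 0 were called between lymph node and spleen over the 3 populations by edgeR, DESeq2 or limma-voom (3 at an unadjusted p under 0.05), with a median log2 change of -0.13. Of 7 septins, 0 were called by any of the 3 tools (2 at an unadjusted p under 0.05), with a median of -0.10, and the 8 Gimap genes had a median of -0.38. The Gimap genes were chosen with their levels in view, so this contrast may follow in part from the choice. In Id3- eTR against Id3+ cTR 2 interferon-inducible GTPases were called higher (Gbp4 and Gbp8) and 2 lower (Gbp2 and Tgtp1) in lymph node, and 3 were called higher in spleen (Gbp3, Gbp7 and Gbp8). Among septins 1 was called higher (Sept11) and 1 lower (Sept6) in lymph node. In spleen 0 were called by any of the 3 tools, with 4 at an unadjusted p under 0.05. In that spleen comparison 3126 of all 12445 genes tested had an unadjusted p under 0.05 by edgeR.

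Markers of other cell types moved with some of these groups. Erythroid and platelet markers differed between tissues: 3 of the 7 tested, Hba-a1, Hbb-bs and Hbb-bt, were called lower in lymph node, and the summed level of the list was 1.51 to 11.7 CPM in lymph node against 10.9 to 285 CPM in spleen. The sum reached 166 to 285 CPM in spleen Id3+ cTR. None of the tested markers of B cells (7 of 9 tested), myeloid cells (6 of 9), CD8 T and NK cells (6 of 8), endothelial and stromal cells (1 of 8, Pecam1) or conventional CD4 T cells (6 of 8) was called between tissues by edgeR or limma-voom. Some low counts still differed. Csf1r had 1 count in lymph node and 54 in spleen, Adgre1 15 and 73, and Eomes 3 and 53. Lyz2 went the other way, with 2060 and 343. Equal shares of these cells in the 2 tissues were thus not shown. DESeq2 called 1 each of the CD8 T and NK, endothelial and stromal, and conventional CD4 lists, and 1, 1, 1, 1 and 2 markers of the 5 lists had an unadjusted p under 0.05. The B cell list summed to 774 to 1330 CPM in lymph node and 995 to 1290 CPM in spleen, the myeloid list to 141 to 446 and 137 to 296 CPM, and the CD8 T and NK list to 62.2 to 406 and 79.5 to 386 CPM. Of the defining markers, Ncr1 of NK cells and Cdh5, Vwf, Col3a1 and Pdgfrb of endothelial and stromal cells were at 0 counts in all libraries. Between populations, Id3- eTR had 4 of 6 tested myeloid markers called higher than Id3+ cTR in lymph node and 3 in spleen, and Ifng, Il4 and Tbx21 of the conventional CD4 list were higher in both tissues. In the same comparison Nkg7 and Ccl5 of the CD8 T and NK list were higher in both tissues, and Klrk1 of that list and Cd74 and Ighm of the B cell list were higher in lymph node, while Pecam1 was lower in both tissues and Cd79a and Alas2 were lower in spleen. In Id3+ eTR against Id3+ cTR, Nkg7, Ccl5, Cd74, Ifng, Il4, Cd40lg and Cxcr5 were higher in lymph node, Ifng, Il4 and Tbx21 were higher in spleen, and Pecam1 was lower in both. In Id3- eTR against Id3+ eTR, Nkg7, Ccl5 and Tbx21 were higher in spleen, and Pecam1 was lower in both tissues. The part of these cells or genes in the Gimap levels was not tested.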

How the data were processed

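RNA-seq counts of 18 libraries from 3 mice were used, with 6 groups of 3. Per the submitters' processing notes, the tools include TopHat, Bowtie, SAMtools, Picard, FastQC and HTSeq 0.4.1, with no roles given; the genome build and annotation are not given in the sources used here. Raw counts for 37991 genes were deposited. The authors also deposited a table of normalized values (signal) for 14011 genes, of which 13883 matched by symbol; 99.982% of its values equal the count times 1 factor per library within 0.1%. Symbols were found for 32919 identifiers, and the 5072 without one held 0.891% of counts.

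Genes passing filterByExpr with a minimum count of 10 were fitted in edgeR 4.0.16 (R 4.3.3) with TMM scaling and a robust quasi-likelihood test on 6 group means, with 12 residual degrees of freedom and Benjamini-Hochberg adjustment over 12445 genes. Log2 CPM used a prior count of 2, and SE was the log2 change divided by the root of F. The biological coefficient of variation was 0.294. Alternatives were DESeq2 1.42.0, limma-voom (limma 3.58.1), other scaling and filters, fits of the compared groups alone, a replicate block and leaving out libraries. The fit and its settings were tested on simulated data. Intervals for counts cover counting error only.

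Mouse numbers pair the libraries, since same-numbered libraries come from the same animal per the labels. Deviations from group means had a mean correlation of 0.02 over 45 same-mouse pairs (-0.0309 to 0.0798) and -0.01 over 90 other pairs. P-values measure the spread among libraries within groups, each of 3 littermates, from a fit without a mouse term. The mean over the 3 populations takes libraries of the same mouse as independent.

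The members and gene lists were chosen with earlier results of these data known. The genes named beyond the members were the 5 most like the family, the flanking neighbours and the partner genes with the largest mean change among those called. Some items of the sort and of the gene lists are not reported here.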

Additional observations from a re-analysis of the deposited data

How the results depend on the processing

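Over the mean of the 3 populations, the tissue count stayed between 5 and 8 members called lower in 25 alternatives (7 with DESeq2 and with RLE size factors, 6 as reported), and all 200 member values kept their sign. Over all genes DESeq2 called 362 in that comparison and edgeR 115. No called value reversed. In single comparisons the number of members called moved by over 1.5 times, or to or off 0, as follows. With DESeq2 it was 2 for Id3- eTR against Id3+ cTR in spleen and 2 in lymph node (1 each with edgeR), and in the tissue comparison 5 for Id3- eTR (2 with edgeR) and 4 for Id3+ cTR (0 with edgeR). Over all genes DESeq2 called 1889, 1994, 145 and 108 in these comparisons, against 1526, 1610, 38 and 1 with edgeR. Smaller moves, from 2 to 3, came with DESeq2 for Id3+ eTR against Id3+ cTR in both tissues and for the tissue comparison in Id3+ eTR. Over all genes DESeq2 called 1025 in spleen, 1004 in lymph node and 200 between the tissues there, against 538, 705 and 36 with edgeR. Limma-voom and a scaling without the most abundant genes also gave 3 in place of 2, for Id3+ eTR against Id3+ cTR in lymph node and for the tissue comparison in Id3- eTR. With limma-voom it was 1 for Id3+ eTR against Id3+ cTR in spleen, and without a filter on low counts 1 in lymph node (2 each as reported). Without the 3 spleen libraries, a fit with 1 library left in spleen Id3+ cTR, these counts moved as well. They are not listed, since the share of all genes called in that fit is not given. With only the compared groups fitted, the number of members called was 0, 2 and 1 for Id3+ eTR in spleen, Id3- eTR in lymph node and Id3+ eTR in lymph node against Id3+ cTR. In that setting it was 1 and 0 for the tissue comparison in Id3- eTR and Id3+ eTR. With the replicate block, the paired fit, it was 1 for Id3+ eTR against Id3+ cTR in lymph node and 1 for the tissue comparison in Id3- eTR, and no other call changed. Apart from the libraries or genes left out by construction, the cause was not tested.

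Leaving out 1 library gave 0 to 2 called members for each spleen comparison with Id3+ cTR, 0 to 1 for Id3- eTR against Id3+ eTR in spleen, 1 to 1 and 0 to 1 for Id3- eTR and Id3+ eTR against Id3+ cTR in lymph node, and 1 to 2, 0 to 2 and 0 to 2 for the tissue comparison in Id3- eTR, Id3+ eTR and Id3+ cTR. Where 1 library was left in a group, it was assumed to vary like the others. The interactions stayed at 0. For fits with 1 library left out the share of all genes called is not given. With the authors' normalized values, 38 of 48 group levels moved by less than 1 SD. The counting error from depth alone is at most 5.56% for a member's value. It does not cap the full error, since libraries of the same group differed by 4.16 to 20.8 times the counting variance.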
